A study of Homo sapiens with 16 samples.

Results

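Regions of m6A enrichment whose midpoint lies in a short internal coding exon were described here in human prostate cancer cells. An exon was counted as short below 200 nt, the midpoint had to lie in its coding sequence, it could be neither the first nor the last exon of its gene's canonical protein-coding transcript, and the region could overlap no stop codon of such a transcript. On chromosomes 1 to 22 and X, 599 of the 36970 regions of the series' merged list met this rule, or 1.62%. They lay in 530 genes, of which 471 held 1 such region and 59 held several.

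MeRIP-seq, in which an antibody against m6A enriches RNA fragments that are compared with unenriched input RNA, had been applied to C4-2B, an enzalutamide-sensitive line, and to MDV-R, a line derived from C4-2B by passage in enzalutamide, an inhibitor of the androgen receptor. Both lines are wild type by label and were collected at day 3 in the same serum-containing medium, and per the study's methods MDV-R was kept in enzalutamide. There were 4 immunoprecipitated (IP) and 4 input samples per line, 16 in all, and each IP sample had its own peak list. The titles of the MDV-R samples carry the name of another cell line, so that the cell line field was followed. Each group is a single line, and nothing in the labels says that replicates came from separate cultures, so that p-values measure the spread between these samples.

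m6A, N6-methyladenosine, is written on nascent mRNA by the METTL3-METTL14 complex at DRACH sequences, among which GGAC is the most favoured core. The modification is known to gather in long internal exons and around stop codons. In short internal exons the exon junction complexes left by splicing sit close to every base and are known to keep the methyltransferase away, so that few sites are found there despite a like frequency of motifs.

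The lists held 13191 to 30645 peaks, fewest in C4-2B replicate 1. A tag is a deduplicated read, and the tags behind each list were recovered from the peak caller's statistics. They came to 863500 to 1206500 IP tags in C4-2B and 896500 to 1027000 in MDV-R, against 901200 to 1228900 and 1598400 to 2967500 input tags. Of 25 listed androgen receptor and prostate luminal genes, 18 held a region in an exon, and 20 of their 36 regions were called in all 8 lists.

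The short exons that carried the strongest regions are printed for their motif content. They are those of the 5 regions called in all 8 lists that ranked highest after FAM83H, and the 2 highest-ranked of those called in 1 line alone, per line. Sequences are on the gene strand, hg38, in lower case with GGAC in capitals.
GRIN1 exon (chr9:137163169-137163330, plus strand): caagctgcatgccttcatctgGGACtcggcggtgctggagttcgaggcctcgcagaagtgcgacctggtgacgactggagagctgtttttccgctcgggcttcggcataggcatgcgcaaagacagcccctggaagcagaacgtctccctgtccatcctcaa
SLC34A3 exon (chr9:137232575-137232703, plus strand): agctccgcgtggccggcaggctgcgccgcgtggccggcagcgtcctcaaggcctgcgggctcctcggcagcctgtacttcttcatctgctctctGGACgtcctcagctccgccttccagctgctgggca
NOP14 exon (chr4:2941582-2941729, minus strand): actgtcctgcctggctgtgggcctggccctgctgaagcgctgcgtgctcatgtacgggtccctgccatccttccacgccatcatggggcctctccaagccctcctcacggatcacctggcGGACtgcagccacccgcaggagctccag
ZC3H4 exon (chr19:47085318-47085414, minus strand): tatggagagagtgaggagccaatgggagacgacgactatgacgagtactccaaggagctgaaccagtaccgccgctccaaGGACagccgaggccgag
IFIH1 exon (chr2:162310765-162310933, minus strand): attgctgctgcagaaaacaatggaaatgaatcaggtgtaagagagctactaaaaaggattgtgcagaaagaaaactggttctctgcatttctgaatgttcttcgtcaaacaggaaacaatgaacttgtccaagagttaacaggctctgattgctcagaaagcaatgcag
GSTA4 exon (chr6:52984464-52984605, minus strand): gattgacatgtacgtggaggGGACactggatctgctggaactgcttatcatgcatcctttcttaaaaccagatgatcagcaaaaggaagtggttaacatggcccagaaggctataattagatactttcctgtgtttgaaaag
LBHD1 exon (chr11:62669882-62670041, minus strand): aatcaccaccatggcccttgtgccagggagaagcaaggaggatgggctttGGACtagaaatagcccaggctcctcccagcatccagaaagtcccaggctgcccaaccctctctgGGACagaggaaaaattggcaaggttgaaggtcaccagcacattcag
CPT1B exon (chr22:50571158-50571292, minus strand): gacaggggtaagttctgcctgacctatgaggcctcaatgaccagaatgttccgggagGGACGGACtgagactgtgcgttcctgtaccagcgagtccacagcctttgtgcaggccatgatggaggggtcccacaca
THBS1 exon (chr15:39591191-39591350, plus strand): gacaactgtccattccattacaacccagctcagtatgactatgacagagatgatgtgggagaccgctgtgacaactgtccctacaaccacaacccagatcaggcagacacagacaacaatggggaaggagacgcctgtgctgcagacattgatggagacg
All of these exons held GGAC on the gene strand except those of IFIH1 and THBS1. On the opposite strand all held it except those of ZC3H4 and GSTA4. Among the exons of all members 55.6% held GGAC on the gene strand, and among all short internal coding exons 39.9%. The exons of members were also longer, with a median of 140 nt against 114 nt, and richer in G and C. The part of length and base composition in these shares was not tested. Where the strongest summit lay outside the short exon, the 101 nt around it were read as well, again with GGAC in capitals.
GRIN1 summit in C4-2B replicate 4 (chr9:137164482-137164582, plus strand): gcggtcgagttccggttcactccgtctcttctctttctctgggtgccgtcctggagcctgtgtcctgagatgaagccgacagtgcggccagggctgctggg
SLC34A3 summit in MDV-R replicate 4 (chr9:137231980-137232080, plus strand): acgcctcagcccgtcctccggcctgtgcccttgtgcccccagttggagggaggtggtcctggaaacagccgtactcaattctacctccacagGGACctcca
NOP14 summit in C4-2B replicate 2 (chr4:2942456-2942556, minus strand): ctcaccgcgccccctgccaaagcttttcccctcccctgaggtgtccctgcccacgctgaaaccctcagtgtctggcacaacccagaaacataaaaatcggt
CPT1B summit in MDV-R replicate 4 (chr22:50571477-50571577, minus strand): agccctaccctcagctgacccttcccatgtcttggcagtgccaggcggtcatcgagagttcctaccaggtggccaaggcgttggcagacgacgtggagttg
THBS1 summit in MDV-R replicate 1 (chr15:39591582-39591682, plus strand): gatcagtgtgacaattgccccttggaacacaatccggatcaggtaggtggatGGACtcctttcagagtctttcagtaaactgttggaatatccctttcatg
The windows of GRIN1, NOP14 and CPT1B held no GGAC on the gene strand, and those of SLC34A3 and THBS1 held 1 each. On the opposite strand the windows of GRIN1, SLC34A3 and NOP14 held GGAC.

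Short internal exons were sparse in regions. Regions with their midpoint in such exons numbered 37.4 per Mb of coding sequence, against 381 per Mb in internal coding exons of at least 200 nt, called long exons below. For regions called in all 8 lists the densities were 2.24 and 175 per Mb. The density rose with exon length from 30.0 per Mb below 100 nt to 44.2 between 150 and 200 nt, 92.5 between 200 and 300 nt, 355 between 300 and 400 nt and 901 between 400 and 600 nt, and was 430 in exons of 1000 nt or more. Of the 140445 short exons, 0.427% held a midpoint, against 13.7% of long exons, a share that went from 2.12% at 200 to 300 nt to 67.7% at 1000 nt or more. GGAC was about as frequent in both classes of exon, with 4.73 and 4.86 per kb. Among the 4855 genes that held a region called in all 8 lists, the densities were 81.9 per Mb in short exons and 703 per Mb in long ones; these genes were chosen by the same calls, 1493 of them in long and 36 in short exons, so that this contrast is no independent support. Peaks had been called in genome coordinates, in which a fragment that spans a splice junction is split, and the part of this in the densities was not tested. Next to the limit of 200 nt, 4 of 83 regions in exons of 180 to under 200 nt (4.82%) and 11 of 75 in exons of 200 to under 220 nt (14.7%) were called in all 8 lists, with a mean of 2.99 and 3.45 lists a region.

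**Figure D1:**
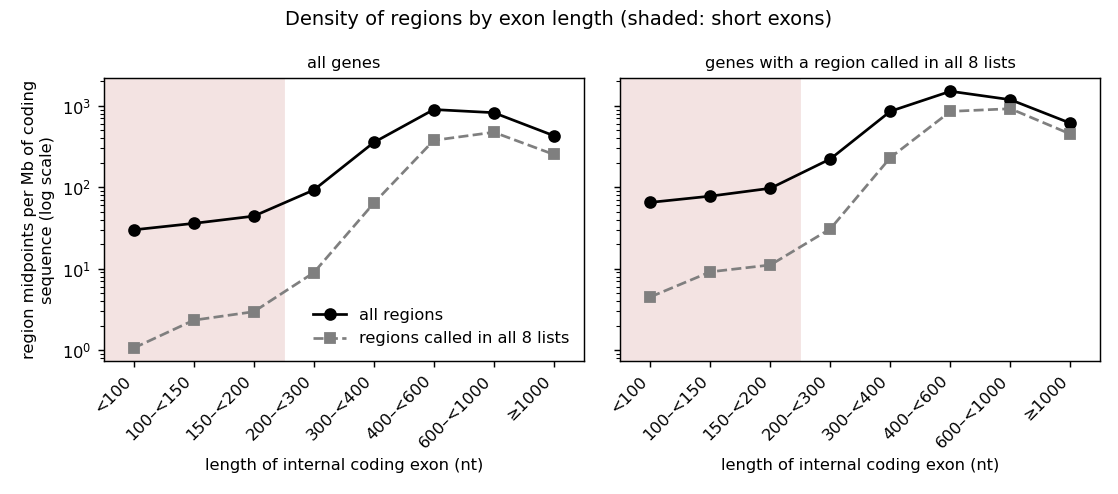
Region midpoints per Mb of coding sequence (y axis, log scale) by length of the internal coding exon in nt (x axis), for all genes (left) and for genes that hold a region called in all 8 IP lists (right). Circles are all regions of the merged list and squares those called in all 8 lists; the 3 shaded bins are short exons, which sit lowest in both panels.

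Few of the regions in short exons were called in every list. Of the 599, 36 (6.01%) were called in all 8 lists, 167 in 1 list, 96 in 2 lists and 28 in none, meaning that no peak of any list overlapped the merged region. Of the 3245 regions in long exons 1493 (46.0%) were called in all 8 lists, and 317 in 1. Among the short-exon regions called in a given list, the share called in all 8 was 78.3%, 13.9%, 20.2% and 22.1% in C4-2B replicates 1 to 4 and 12.1%, 10.3%, 18.8% and 8.14% in MDV-R replicates 1 to 4. The matching shares for long-exon regions were 94.6%, 61.7%, 65.3% and 65.7%, and 59.0%, 55.4%, 61.5% and 52.4%. The short-exon share was lower by 41.5 ± 10.3 percentage points on average (SD over 8 lists). These shares restate the counts of 36 and 1493, which all lists share, so they are given as a description with no test. C4-2B replicate 1 limited the count, since 85 short-exon regions (14.2%) and 1884 long-exon regions (58.1%) were called in each of the other 7 lists. It called 46 members itself, the fewest of any list. Among regions of 300 to 600 nt in both classes the mean difference was 17.7 points.

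**Figure D2:**
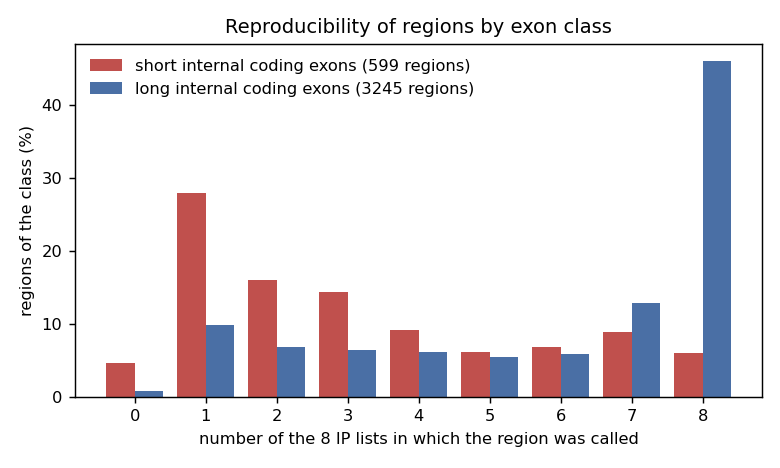
Share of the regions of a class (y axis, %) by the number of the 8 IP lists in which the region was called (x axis), for the 599 regions in short and the 3245 regions in long internal coding exons. The short-exon regions are most often called in 1 list (27.9%), the long-exon regions in all 8 (46.0%).

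Where they were called, the short-exon regions were also weaker. IP tags at the summit, scaled to the IP library as CPM, had list medians of 26.6 to 32.1 CPM in short exons and 48.0 to 60.2 in long exons. The ranges of the 8 lists did not overlap, and the ratio of short to long was 0.557, a log2 difference of -0.85 ± 0.068 (SD, n = 8; exact two-sided sign-flip test p = 0.00781, the smallest that 8 lists allow; adjusted p = 0.0117 over 9 exact tests). Among regions of 300 to 600 nt it was -0.46. Fold enrichment, the ratio of IP pileup to local background at the summit, had list medians of 5.74 to 6.85 in short and 6.44 to 11.5 in long exons. Its log2 difference was -0.50 ± 0.22 (exact p = 0.00781), and it was lower for short exons in each of the 8 lists. With lists of equal size the difference was -0.24, and among regions of 300 to 600 nt -0.33. The local background, in multiples of a list's floor, had medians of 7.42 to 15.1 at short-exon summits and 8.66 to 21.5 at long-exon summits, lower for short exons in each of the 8 lists. Within genes that held both kinds of region in a list, 12 to 131 genes a list, the median log2 difference in fold enrichment was -0.59 ± 0.13, a ratio of 0.663 (exact p = 0.00781). Among regions called in all 8 lists the gap was smaller for fold enrichment, at -0.14 on the log2 scale, and -0.63 for IP tags. Every list holds the same regions in this subset, so that the lists are no independent repeats and no test is given.

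**Figure D3:**
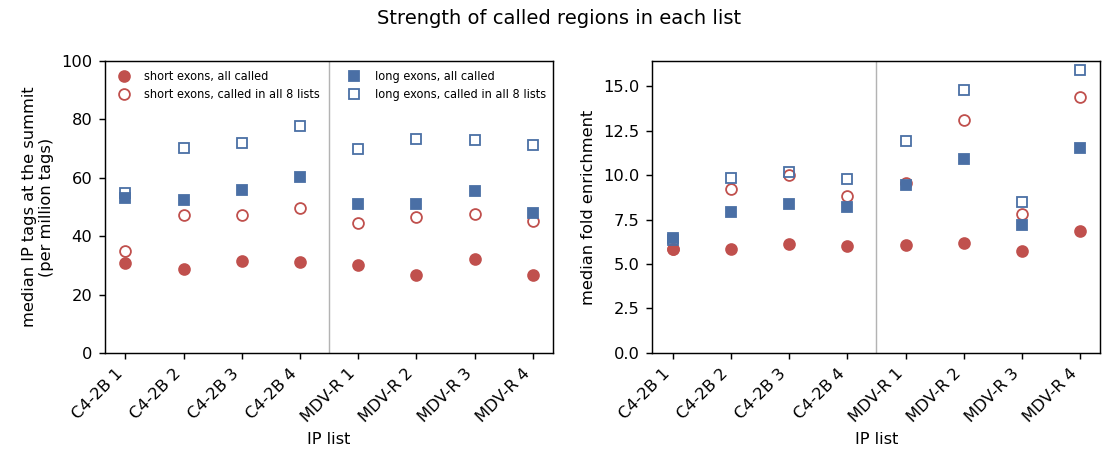
Median IP tags at the summit in CPM (left y axis) and median fold enrichment (right y axis) of the regions called in each of the 8 IP lists (x axis), in short (circles) and long (squares) exons; filled symbols are all called regions and open symbols those called in all 8 lists. Filled circles stay between 26.6 and 32.1 CPM, below every filled square.

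The summits of these regions were often not in the short exon. Member regions had a median length of 549 nt around exons with a median of 140 nt, and the short exon covered a median of 25.8% of its region, against 79.0% for long exons. Over the 8 lists 43.6 ± 4.75% of short-exon summits (SD) lay in the exon of the midpoint, against 96.3 ± 0.893% of long-exon summits. By the strongest summit over all lists, 271 members peaked in the short exon, 269 in an intron, 30 in another exon and 1 outside the gene. Among the 36 members called in all 8 lists, 20 peaked in an intron and 12 in the short exon. The region touched another exon of 200 nt or more in 75 members (12.5%).

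Other transcripts of the same genes often draw the exon differently. The midpoint lay in a last exon of another annotated transcript for 176 members (29.4%), in an exon of 200 nt or more for 241 (40.2%) and in a transcript annotated as a retained intron for 337 (56.3%). These shares were 33.3%, 41.7% and 41.7% among the members called in all 8 lists and 31.7%, 40.1% and 56.3% among those called in 1 list. The 286 members that touched no long exon and had neither a last exon nor an exon of 200 nt or more in another transcript held 17 called in all 8 lists (5.94%). Members were spread along the coding sequence, with a median position of 54.0% of its length. In 10.5% the exon was the one before the last, as for 9.94% of all short internal coding exons, and in 12.9% it was the second, as for 8.18%.

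Motif content set the classes apart by strand. GGAC occurred within 50 nt of the summit, on the gene strand, in 56.5%, 44.0%, 44.9% and 50.3% of short-exon regions in C4-2B replicates 1 to 4 and in 40.9%, 40.9%, 41.4% and 44.3% in MDV-R replicates 1 to 4. On the opposite strand of the same windows it occurred in 37.0%, 45.9%, 37.1% and 44.2%, and in 39.6%, 40.9%, 41.4% and 39.4%. The gene strand exceeded the opposite strand in 5 lists, equalled it in 2 and fell below it in 1, by 4.74 ± 6.89 points on average (exact sign-flip p = 0.0938, adjusted p = 0.105). Without C4-2B replicate 1, whose own excess was 19.6 points, the mean was 2.63 points (exact p = 0.188). At long-exon summits, added after the data were examined, GGAC occurred in 47.5 ± 1.56% on the gene strand and 26.0 ± 0.861% on the opposite strand, an excess of 21.5 ± 2.24 points that was present in 8 of 8 lists (exact p = 0.00781). The excess was thus 16.8 ± 6.39 points smaller in short exons (exact p = 0.00781, adjusted p = 0.0117).

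The gene-strand share itself was 45.4 ± 5.45% in short and 47.5 ± 1.56% in long exons, a difference that did not pass (-2.08 ± 4.95 points; exact p = 0.266). Without C4-2B replicate 1 this difference was -3.52 points (exact p = 0.0312). Short-exon windows were richer in G and C, at 57.2 ± 0.535% against 51.7 ± 0.372% (SD, n = 8 lists), and the part of base composition in the opposite-strand share was not tested. With the broader motif DRACH (D is A, G or T; R is A or G; H is A, C or T), searched on both strands and including GGAC followed by A, C or T, the excess was 0.255 ± 3.63 points in short exons and 17.5 ± 1.46 in long ones. The 36 members called in all 8 lists had a gene-strand excess of 7.99 ± 4.31 points for GGAC, above 0 in 8 of 8 lists. For long-exon regions called in all 8 it was 25.1 ± 2.24. Here every list holds the same regions, so that the lists are no independent repeats and no test is given. In the short exons themselves GGAC stood at 6.41 per kb in members and at 8.23 per kb in the 36. Over all short internal coding exons it stood at 4.73 per kb. The opposite strand held 4.41, 5.82 and 3.16 per kb, so that GGAC was more frequent in members and in the 36 on both strands. Exons of members and of the 36 were also richer in G and C, at 58.3% and 59.3%, than all short internal coding exons. The part of base composition in these frequencies was not tested.

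**Figure D4:**
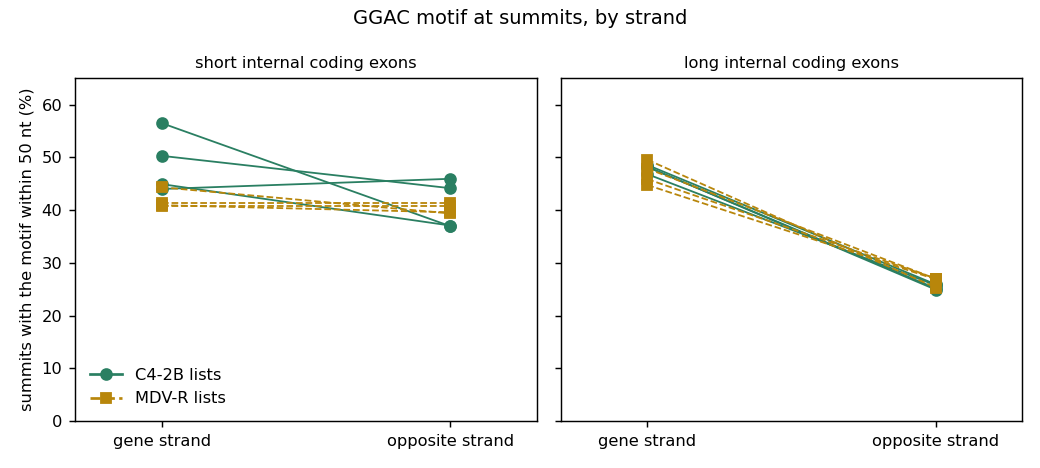
Share of summits with GGAC within 50 nt (y axis, %) on the gene strand and the opposite strand (x axis), 1 line per IP list, for regions in short (left) and long (right) internal coding exons. In long exons each list drops from 44.8 to 49.6% on the gene strand to 24.9 to 27.0% on the opposite strand, while in short exons the lists differ, from a drop of 56.5 to 37.0% in C4-2B replicate 1 to a rise of 44.0 to 45.9% in C4-2B replicate 2.

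Among the 36 members called in all 8 lists, the 10 with the highest rank of −log10 p were taken for description. FAM83H, a keratin-organizing protein of enamel, ranked highest. Its region held 149 to 213 CPM over the 8 lists with a median of 169, and a fold enrichment of 5.75 to 23.9. The region was 1122 nt long around exon 4 of 5 and touched an exon of 200 nt or more, and its strongest summit lay in another exon than the short one. GRIN1, the obligatory subunit of NMDA receptors, held a region of 3810 nt (chr9:137161335-137165144) that touched 9 exons, none of 200 nt or more. It had 81.2, 87.2, 97.5 and 119 CPM in C4-2B and 72.1, 88.2, 80.8 and 74.7 in MDV-R, with overlapping ranges. SLC34A3, a sodium-phosphate cotransporter, held 36.5 to 74.7 CPM (chr9:137231282-137233977), and NOP14, a small-subunit ribosome biogenesis factor, 43.9 to 79.3 (chr4:2939884-2943521). These 3 long regions had their strongest summit in an intron.

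ZC3H4, which restrains extragenic transcription, had a compact region of 625 nt (chr19:47085072-47085696) with its strongest summit in the short exon. It held 62.2, 75.3, 91.1 and 85.7 CPM in C4-2B and 79.9, 86.1, 76.0 and 81.4 in MDV-R, a like level in both lines. The gene also held a region over its stop codon that was called in all 8 lists. IFIH1, the double-stranded RNA sensor MDA5, had its region at exon 2 of 16 (chr2:162310455-162311213), with 42.3, 61.4, 56.8 and 64.8 CPM in C4-2B and 44.4, 45.7, 54.5 and 37.9 in MDV-R. In another annotated transcript the midpoint lay in a last exon, and the same held for the regions of MIEF2, a mitochondrial fission factor (33.2 to 56.9 CPM), and PLCD4, a phospholipase C (24.4 to 54.4). PPP1R9B, the phosphatase-targeting scaffold spinophilin, held 56.4 to 74.4 CPM, and SYTL1, a Rab27 effector of vesicle traffic, 43.1 to 84.7.

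More members were called on average in MDV-R lists, without passing the test. Of the 599, C4-2B replicates 1 to 4 called 7.68%, 43.2%, 29.7% and 27.2%, and MDV-R replicates 1 to 4 called 49.7%, 58.4%, 31.9% and 73.8%. The ranges overlapped, and the difference of 26.5 points did not pass the exact two-sided permutation test over 4 against 4 lists (p = 0.0571, where the smallest possible is 0.0286). Long-exon regions were called at 48.7%, 74.6%, 70.4% and 70.1% in C4-2B and 78.0%, 83.0%, 74.9% and 87.8% in MDV-R, a difference of 14.98 points (exact p = 0.0286). The gap between the classes was 11.5 points narrower in MDV-R, which did not pass (exact p = 0.143). The input samples of MDV-R were deeper in every replicate, and with each list reduced to its 13191 strongest peaks the difference for members was 6.39 points (exact p = 0.0857), so that depth of calling and line cannot be told apart here.

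Between the lines, 3 members were called in every C4-2B list but in 0 MDV-R lists, or 0.525% of the 571 members called at all, where 1.22% of all 36076 called regions were. In the other direction 18 members, or 3.15%, were called in every MDV-R list but in 0 C4-2B lists, where 3.68% of all called regions were. Both shares were below those of all regions, the MDV-R share by little, on small counts of 3 and 18. Of the 3219 long-exon regions called at all, 0.559% were called in every C4-2B list but in 0 MDV-R lists. In the other direction the long-exon share was 2.36%, lower than that of the members. With lists of equal size the 18 became 6, without C4-2B replicate 2 they became 31, and without MDV-R replicate 3 they became 67. No region can pass a test of these calls, since Fisher's exact test over 4 against 4 lists gave a lowest adjusted p of 0.584 and 0 regions under the threshold, with 21 members at an unadjusted p of 0.0286.

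The 3 members called in C4-2B alone were in GSTA4, a glutathione transferase, in LBHD1 and in MAN1B1, a mannosidase of glycoprotein quality control. GSTA4 (chr6:52984161-52984831) held 34.8, 48.5, 43.9 and 52.1 CPM in C4-2B, and no other region in its exons. LBHD1 (chr11:62669505-62670270) held 34.0, 49.5, 54.7 and 49.8. MAN1B1 (chr9:137099323-137100097) held 26.5, 46.6, 38.6 and 39.4, with fold enrichments of 3.11, 4.11, 11.6 and 3.68. LBHD1 was the gene of the 3 with a further region called in all 8 lists. MAN1B1, like GSTA4, had no other region in its exons. For both a missing transcript in MDV-R and a missing mark cannot be told apart.

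In MDV-R alone, the 5 highest-ranked members were in CPT1B, THBS1, CLDN18, SH3GL1 and ACADVL. CPT1B, the muscle form of the mitochondrial fatty acid importer, held 42.2, 45.7, 43.8 and 50.2 CPM (chr22:50570406-50572137). CLDN18, a tight junction protein, held 21.1, 26.6, 22.4 and 29.0 (chr3:138023318-138024242). SH3GL1, an endophilin of endocytosis, held 26.6, 37.2, 48.7 and 46.8 (chr19:4362066-4363242). ACADVL, the very long-chain acyl-CoA dehydrogenase, held 58.8, 85.0, 76.9 and 73.6 (chr17:7221776-7222663), with low fold enrichments of 2.64 to 5.86. CPT1B, CLDN18 and ACADVL had no other region in their exons, and the other region of SH3GL1 was called in MDV-R lists alone. For these genes a missing transcript in C4-2B and a missing mark cannot be told apart.

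THBS1, which encodes the matrix protein thrombospondin-1, was the gene with a short-exon region among the 6 that the study took to siRNA. The region (chr15:39590356-39592042, exon 15 of 22, exon length 160 nt) held 43.3, 35.1, 38.0 and 44.6 CPM in MDV-R and was called in 0 of 4 C4-2B lists. It spanned 3 exons and 1687 nt, and its strongest summit lay in an intron. Another region of THBS1, over the stop codon (chr15:39595216-39596432), was called in all 8 lists, with 247, 306, 325 and 343 CPM in C4-2B and 76.6, 70.1, 76.9 and 72.5 in MDV-R. The study reported less THBS1 mRNA in MDV-R. It also reported exonic THBS1 peaks only in MDV-R, a significant example being backed by MeRIP-PCR. For a 3'UTR peak it found no statistical difference between the lines. These peaks were not matched to the regions described here. Fold enrichment over the stop codon was higher in MDV-R, at 28.6, 31.7, 27.3 and 44.4 against 4.86, 7.67, 11.1 and 8.71 in C4-2B. The local background there was 117 ± 26.6 floors in C4-2B (SD, n = 4) against 3.91 ± 1.75 for MDV-R, without overlap, so that the line without a call at the short exon had the higher background over the same gene; its part in the missing call was not tested. Of the other 5 genes, GRHL2, PARP10, PAK4 and SYT4 held regions in other exons. FN1 had no merged region with its midpoint in an exon of its canonical transcript. The study itself reported an exonic FN1 peak.

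**Figure D5:**
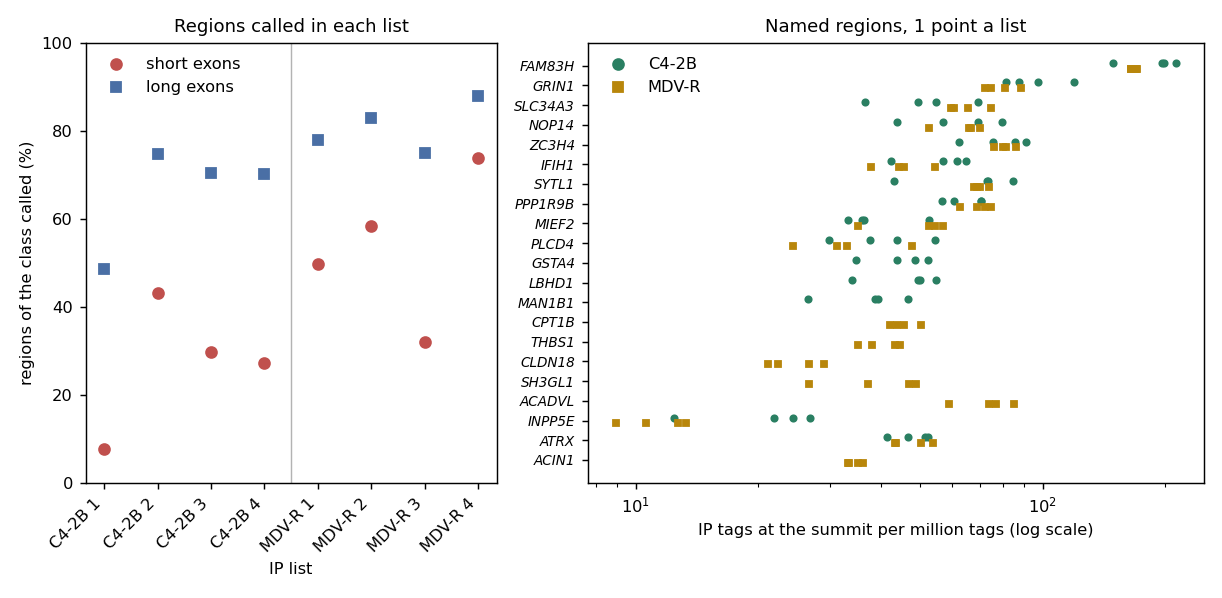
Left, share of the short-exon (circles) and long-exon (squares) regions called (y axis, %) in each IP list (x axis). Right, IP tags at the summit in CPM (x axis, log scale) of the named short-exon regions (y axis), 1 point per list in which the region was called, C4-2B as circles and MDV-R as squares; regions with points of 1 line alone were called in 4 lists of that line and 0 of the other.

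Of the members called in all 8 lists, few differed in strength between the lines. A limma fit of log2 fold enrichment, centred on each list's median, was run over the 9327 regions called in all 8 lists, and an adjusted p is over all of them. Among the 36 members 0 were higher in MDV-R, where 0.847% of all regions were, and 2 were lower, where 1.79% of all regions were. INPP5E, a phosphoinositide phosphatase of primary cilia, had fold enrichments of 5.94, 8.70, 11.7 and 10.8 in C4-2B and 5.30, 6.0, 5.75 and 5.27 in MDV-R, a log2 change of -1.09 ± 0.243 (SE; limma adjusted p = 0.0209) after centring. Its lowest C4-2B value lay within the MDV-R range. The INPP5E values rest on few tags, 15 to 25 at the summit in C4-2B and 8 to 13 in MDV-R. The region was 1920 nt long with its strongest summit in an intron, and ranked lowest of the 36 by −log10 p. SYTL1 had fold enrichments of 6.64, 15.8, 21.7 and 16.7 in C4-2B and 8.23, 9.12, 6.82 and 14.3 in MDV-R, a log2 change of -0.996 ± 0.258 (limma adjusted p = 0.046). Its IP tags were 68.5 ± 17.8 CPM in C4-2B (SD, n = 4) and 70.1 ± 2.52 CPM for MDV-R, while the local background was 8.63 to 16.6 floors in C4-2B and 12.4 to 27.9 in MDV-R. The number of calls changed with single lists, as the 2 fell to 0 without C4-2B replicate 3 or 4 or MDV-R replicate 1, 2 or 4, and to 1 without C4-2B replicate 2 or MDV-R replicate 3. The log2 changes ranged from -1.25 to -0.97 for INPP5E and from -1.20 to -0.84 for SYTL1 when a list was left out. The calls over all regions fell to as few as 22 higher and 71 lower, but rose to 121 and 284 without MDV-R replicate 3. In that fit 1 member was also higher in MDV-R. Without centring 2 members were higher and 0 lower. Before centring, the median of all regions was 0.435 higher in MDV-R on the log2 scale.

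Gene groups were described by counts, beside all genes, where members were 599 of 14158 regions in exons (4.23%) and 6148 of those regions were called in all 8 lists. Chromatin regulators, the largest list, held 13 members in 10 of 39 genes, out of 130 regions in their exons (10.0%), of which 75 were called in all 8 lists. The short-exon region of ATRX, a chromatin remodeller, was the single one of the 13 called in all 8 lists, with 41.4, 46.6, 51.4 and 52.1 CPM in C4-2B and 43.3, 43.6, 53.6 and 50.2 in MDV-R. It lay at exon 10 of 35, an exon of 73 nt, and its midpoint was in a last exon of another transcript. Regions in KMT2D, SETD1A and SETD1B, all parts of histone H3 methyltransferase complexes, were called in 7 lists, missing from a C4-2B list each, and are named for that count. Over the 13 the median was 3 lists, as over all members, and 4 were called in at most 2. SRCAP, a helicase of histone exchange, held 4 members, as did PLXNB2, a semaphorin receptor, and EIF4G1, a translation initiation scaffold; these 3 were chosen after their values were seen, and 0 of their 12 members were called in all 8 lists, where 6.01% of all members were. Each gene held another region that was.

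Of 18 genes of the exon junction complex and its partners, 3 held 4 members, out of 29 regions in exons (13.8%, against 4.23% over all genes). ACIN1, which joins the complex, had a region called in each MDV-R list and 0 C4-2B lists (33.3, 36.1, 35.1 and 33.5 CPM, fold enrichment 2.25 to 5.02), UPF1, the helicase of nonsense-mediated decay, held 2, and SRRM2, a splicing scaffold, held 1. Of 19 m6A writers, erasers and readers, YTHDC1, the nuclear reader, held the single member among 33 regions (3.03%). It was called in 7 lists with a mean of 42.9 CPM in C4-2B and 51.3 in MDV-R. Extracellular matrix and adhesion genes held 3 members among 30 genes and 32 regions (9.38%), in THBS1, COL18A1 and COL6A2, the last 2 called in at most 2 lists. Nuclear transport genes, giant ubiquitin ligases and aminoacyl-tRNA synthetases held 2 each, and the prostate luminal and giant cytoskeletal lists 1 each, in KLK4 and MYH9. The 25 spliceosome, 29 vesicle coat, 33 carbon metabolism and 35 genome maintenance genes held none among 11, 23, 11 and 35 regions in exons, numbers in which 4.23% comes to few members. Over all members the median number of lists was 3, and 291 of 599 were called in at most 2.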

How the data were processed

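MeRIP-seq peak lists of 8 IP samples (4 of C4-2B, 4 of MDV-R) and 1 merged region list were used, all on hg38. Per the labels and methods, the authors aligned reads with STAR 2.7.0, kept unique, deduplicated reads with SAMtools 1.10 and called peaks per replicate with MACS2 3.0.0a6 (no model, extension 100 nt). The deposited lists give a fold enrichment (ratio of IP to background), a −log10 p-value, a −log10 q-value of at least 2.00 and a score for each peak; the deposited merged list gives coordinates. How it was merged is not given in the sources used here, and input samples have no list of their own.

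Members and lists were chosen with earlier results of these data known. Regions were classed with GENCODE 44 canonical transcripts and counted as called where at least 1 base of a peak overlapped; the strongest such peak gave the values. IP tags and background at each summit were solved from fold enrichment and −log10 p, whole numbers to within 0.01 tags in 99.989% to 100.0% of peaks (5.55% to 11.9% with a wrong scale); CPM is such tags scaled to the list's IP tags. Depth is thus reconstructed, and list medians of 24 to 64 tags a summit set the counting error. Lists were compared by exact sign-flip and permutation tests and by limma 3.58.1 in R, with Benjamini-Hochberg adjustment at 0.05, in Python 3.11.15 with scipy 1.17.1. Other list sizes, thresholds, overlaps, classes, motif windows and normalizations, and each list left out in turn, were run as alternatives. The planned test of the share called in all 8 lists is not given, since the lists share its numerator. In a fit on 9327 regions simulated with the real spread, 62 of 200 regions changed by 1 on the log2 scale were found, with 5 false calls.

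Named members were the 10 called in all 8 lists that ranked highest by −log10 p, averaged as percentiles over the lists, the 5 such per line called in 4 lists of it and 0 of the other, members with adjusted p under 0.05 in limma, members of gene lists called in all 8 lists or in 1 line alone, and genes taken to siRNA; the 12 members at coding sequence of several genes were not named. Replicate numbers did not pair the lists (correlations of deviations from -0.0749 to 0.0251).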

Additional observations from a re-analysis of the deposited data

Results flagged for a closer look

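Among 96 groups of 4 lists examined, in which chance flags about 1 in 20, 8 held a list far from the other 3. C4-2B replicate 1, with the fewest peaks, stood apart in the share of its members called in all 8 lists (78.3%, the others 13.9% to 22.1%), in the difference of that share from long-exon regions (-16.3 points, the others -47.8 to -43.6) and in the log2 difference of fold enrichment from long-exon regions (-0.141, the others -0.459 to -0.436). MDV-R replicate 4 had GGAC at 44.3% of short-exon summits, the others 40.9% to 41.4%. Of single regions, MIEF2 had 52.5 CPM of IP tags in C4-2B replicate 2 (33.2 to 36.4 in the others), MAN1B1 a fold enrichment of 11.6 in C4-2B replicate 3 (3.11 to 4.11), PLCD4 one of 26.3 in MDV-R replicate 2 (11.7 to 14.1) and CPT1B one of 9.48 in MDV-R replicate 3 (15.5 to 16.1). The difference in gene-strand GGAC between short-exon and long-exon summits was 6.14 points lower in MDV-R than in C4-2B (-6.14; exact permutation p = 0.0286, the smallest possible, 1 of 8 such differences between the lines that were tested and not adjusted over them).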

How the results depend on the processing

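The lower share called in all 8 lists (not tested) kept its direction under every alternative that gave a value, at -45.7 to -17.7 points. Fewer IP tags and lower fold enrichment in short exons, within genes too, did so as well: -1.03 to -0.46, -0.55 to -0.14 and -0.66 to -0.38 on the log2 scale. They also kept their side of the threshold, leaving aside regions called in all 8 lists alone, where no test is given. Within genes, regions of 300 to 600 nt gave no value. Leaving out 1 list moved these differences to -41.5 to -39.9 points, -0.86 to -0.83, -0.55 to -0.46 and -0.62 to -0.57. The smaller strand excess of GGAC in short exons ranged from -22.6 to -14.9 points over 7 alternatives, added after seeing the data.

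The strand excess within short exons, 4.74 points, turned to -0.98 with classes by strongest summit, -0.30 in regions of 300 to 600 nt, -0.16 within 25 nt of the summit and -1.05 in the reduced set of 286 members, which was added after seeing the data, and passed at 3.06 with exon bases only (2.63, without C4-2B replicate 1, to 5.70 leaving out 1 list). Short against long summits on the gene strand passed at -7.65 by strongest summit, -8.20 in regions of 300 to 600 nt, -3.59 within 25 nt, -11.2 for DRACH and -28.1 with exon bases only, where short exons offer fewer bases (-3.52 to -1.21 leaving out 1 list). The cause of the other changes was not tested.

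Members called in 1 line alone, 18 for MDV-R and 3 for C4-2B, became 6 and 4 with lists of equal size, 11 and 1 for exons under 150 nt, and 6 and 0 in regions of 300 to 600 nt (18 to 67 and 3 to 6 leaving out 1 list). The share of members called differed by 19.7 to 33.7 points leaving out 1 list.

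In limma 0 members higher and 2 lower became 2 and 0 without centring, 4 and 7 on CPM, 0 and 0 with means over peaks, 0 and 1 at −log10 q of at least 5, 0 and 1 with trend and robust (0 to 1 and 0 to 2 leaving out 1 list). On CPM 2168 regions were higher and 2518 lower, against 79 and 167 as reported; without centring 318 and 21. Leaving out 1 list gave 22 to 121 higher and 71 to 284 lower.

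With the replicate number as a block the limma counts stayed at 0 and 2, and pairing left the difference in members called at 26.5 points (exact p = 0.125); the numbers are shared in name only. The IP samples held 863500 to 1206500 tags, and the part of this depth in what is called in weakly covered exons was not tested. C4-2B replicate 1 had the most IP tags, 1206500, and the fewest peaks, 13191.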
